A study of Mus musculus with 19 samples.

Results

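The 10 genes described here encode the main heat shock proteins of the cytosol and of the mitochondrial matrix, together with the transcription factor that controls them. They were matched by gene symbol, a rule that uses no measured value, from a list drawn up with earlier results of these data known, and all 10 were found among the 55487 genes counted in crypts of the mouse small intestine. They are Hsf1, the heat shock factor; Hspa8, Hspa1a, Hspa1b, and Hsph1 of the HSP70 and HSP110 families; their J-domain partner Dnajb1; the cytosolic HSP90 genes Hsp90aa1 and Hsp90ab1; and Hspd1 and Hspe1, which encode the mitochondrial chaperonin HSP60 and its lid HSP10.

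All mice were C57BL/6, 10 to 16 weeks old, and of both sexes, and each mouse gave 1 RNA library. Standard chow was given ad libitum (AL) to 5 NT+/+ and 4 NT-/- mice, and food was withheld for 48 hours with free access to water (Fast) in another 5 mice of each genotype. NT-/- mice lack neurotensin (gene Nts), a gut peptide released by nutrients. Fed controls were littermates of the fasted mice, matched for sex and age, but no source used here says which mice share a litter. The paper's abstract describes its fed and fasted mice as carrying an Lgr5-EGFP reporter allele, and its methods also list NT+/+ and NT-/- mice without naming it. The labels do not say whether the sequenced mice carried it. The knockout is present from birth and in every tissue, so it does not separate an effect in crypts from one elsewhere. Nts had 6.75 to 8.59 CPM (counts scaled to library size) in ad libitum–fed NT+/+ mice and 4.98 to 5.71 in fasted ones, and 0.144 to 0.793 in the NT-/- mice of both diets. The title of 1 fasted NT+/+ mouse, replicate 5, disagrees with its genotype label; it was kept by its title, and its Nts level was 5.43 CPM.

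Crypt epithelial genes, a list that includes general epithelial genes such as Epcam and Cdh1, were abundant in every group. All 11 of 11 markers were tested, and their summed level was between 12913 and 22497 CPM. On fasting, 2 of the 11 were lower in NT+/+ mice and 3 in NT-/- mice, with 0 higher, by edgeR at an adjusted p under 0.05. The shares over all genes tested were 10.4% and 12.6% lower, and 11.2% and 12.5% higher. The mean sum of the 11 was 19323 CPM in fed and 18657 CPM in fasted NT+/+ mice, and 18741 and 15974 CPM in NT-/- mice. Marker sums of fibroblasts (5.85 to 12.3 CPM), smooth muscle (1.98 to 7.20 CPM), endothelium (1.30 to 2.88 CPM), exocrine pancreas (1.82 to 4.49 CPM), and erythrocytes (3.75 to 30.7 CPM) were low, and that of immune cells ranged from 78.2 to 208 CPM. The 8 markers of villus enterocytes, the mature absorptive cells that lie above the crypt, moved with diet: their sum was 3451 to 8157 CPM in ad libitum–fed mice, 7295 to 15476 CPM in fasted NT+/+ mice, and 13396 to 18183 CPM in fasted NT-/- mice. Of these 8 genes, 6 rose on fasting in NT+/+ mice and 8 in NT-/- mice. In bulk RNA, fewer cells of a type and less RNA per cell cannot be told apart, and the part of the villus markers in the differences reported here was not tested. Libraries held between 9059418 and 35068669 rounded expected counts (median, 18541770).

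Heat shock proteins bind unfolded or unfinished polypeptides. In the cytosol, J-domain proteins deliver clients to HSP70, HSP110 proteins such as Hsph1 exchange its nucleotide and release the client, and HSP90 completes the folding of kinases, receptors, and other signaling proteins. In mitochondria, HSP60 and HSP10 form a chamber in which imported proteins fold. HSF1 is held inactive by chaperones and, when unfolded protein draws them away or when cells grow and translate rapidly, binds heat shock elements, which are inverted repeats of a GAA unit, upstream of chaperone genes. The constitutive members, Hspa8 and Hsp90ab1, are expressed strongly in unstressed cells, whereas Hspa1a, Hspa1b, Dnajb1, Hsph1, and Hsp90aa1 are the more inducible ones.

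The coordinates given here are those of GRCm38, with the strand after each gene. Hsf1 lies at chr15:76477422-76501913 (plus), Hspa8 at chr9:40800984-40810087 (plus), and Dnajb1 at chr8:83608193-83612653 (plus). Hspa1a (chr17:34969190-34972156, minus) and Hspa1b (chr17:34956436-34959238, minus) are neighbors, and Hsph1 is at chr5:149614287-149636376 (minus). Hsp90aa1 lies at chr12:110690605-110702728 (minus) and Hsp90ab1 at chr17:45567775-45573271 (minus). Hspd1 (chr1:55077835-55088243, minus) and Hspe1 (chr1:55088132-55091307, plus) sit head to head.

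Some of these genes carry that element near their start. Promoter windows of RefSeq (GRCm38.p6), from 250 bases before to 50 bases after the start of transcription, matched 6 of the 10 members in 9 windows; there was none for Hsf1, Hsp90aa1, Hsp90ab1, or Hspa8. A pair of inverted units was searched as GAANNTTC or TTCNNGAA, which read the same on both strands, and the longer element as 3 alternating units with the same spacing, so that each longer match also contains shorter ones. At least 1 pair was present in 6 of the 9 windows, those of 5 members, and in 15.1% of all 32851 windows. The element of 3 units was present in 4 of the 9, those of Hsph1, Hspd1, and Hspe1, and in 0.603% of all windows. These windows are not independent, since those of Hspa1a and Hspa1b are nearly identical and those of Hsph1 and of Hspd1 with Hspe1 overlap. Neither window of Dnajb1 held a match, which says only that these letters are not in these windows. The sequences that carry the element are shown 5′ to 3′ with the matched units in capitals. For Hspa1a (chr17:34972157-34972406, minus strand) and Hspa1b (chr17:34959239-34959488, minus strand) the 250 bases upstream of the RefSeq start are given:
Hspa1a: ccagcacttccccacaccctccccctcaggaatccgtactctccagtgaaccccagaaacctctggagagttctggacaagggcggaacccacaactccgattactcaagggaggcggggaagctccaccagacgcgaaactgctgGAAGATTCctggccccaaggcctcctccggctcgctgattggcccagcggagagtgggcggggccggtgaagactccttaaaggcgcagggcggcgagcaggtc
Hspa1b: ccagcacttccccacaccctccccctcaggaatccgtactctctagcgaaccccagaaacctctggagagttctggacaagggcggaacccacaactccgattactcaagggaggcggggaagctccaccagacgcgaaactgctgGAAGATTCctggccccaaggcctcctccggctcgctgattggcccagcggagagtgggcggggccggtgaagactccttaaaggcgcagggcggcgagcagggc

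These upstream stretches differed at 3 of 250 bases, and the match began 104 bases before the start in both genes. The windows of Hspd1 and Hspe1, which are transcribed away from each other, shared 285 bases where the more internal of the 2 annotated starts of Hspd1 was used. A single element (chr1:55088053-55088082, plus strand) lies 89 bases before the start of Hspe1 and 144 bases before that start of Hspd1, whereas the window of the other Hspd1 start held no match. Its 18 capitals are alternating units in an unbroken series. Hsph1, with 2 annotated starts, held a pair 54 bases before the more internal one (chr5:149636351-149636380, minus strand) and an element of 3 units just after it (chr5:149636279-149636308, minus strand). Each is given within 30 bases:
Hspd1 and Hspe1: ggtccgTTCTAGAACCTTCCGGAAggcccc
Hsph1 site 1: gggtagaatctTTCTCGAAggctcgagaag
Hsph1 site 2: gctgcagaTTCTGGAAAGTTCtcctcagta

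The members covered a wide range of levels, compared here between genes in the deposited TPM, which account for transcript length as well as for depth. In ad libitum–fed NT+/+ mice Hspa8 was highest at 1311 ± 125 TPM (SD, n = 5), followed by Hsp90ab1 at 654 ± 54.6 TPM and Hsp90aa1 at 312 ± 42.5 TPM. The mitochondrial pair followed, with Hspd1 at 261 ± 19.98 TPM and Hspe1 at 154 ± 5.94 TPM. Hsph1 was lower at 45.9 ± 17.6 TPM, then Hsf1 at 23.2 ± 1.88 TPM and Dnajb1 at 11.7 ± 1.89 TPM. The stress-inducible HSP70 genes were nearly silent, with Hspa1b at 1.88 ± 1.51 TPM and Hspa1a at 0.406 ± 0.477 TPM. Neighbors in this order did not overlap, with the exception of Hsp90aa1 with Hspd1 and of Hspa1b with Hspa1a. Some places in the order differed in fasted mice. Hsp90aa1 stood above Hspd1 in 5 of 5 fed NT+/+ mice, and Hspd1 above Hsp90aa1 in 5 of 5 fasted mice of each genotype. In fed NT-/- mice these genes were nearly level, at 240 TPM for Hsp90aa1 and 237 TPM for Hspd1, with Hsp90aa1 higher in 3 of 4 mice. Hsph1, above Hsf1 in 5 of 5 ad libitum–fed NT+/+ mice, stood below it in 4 of 5 fasted NT+/+ mice.

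**Figure D1:**
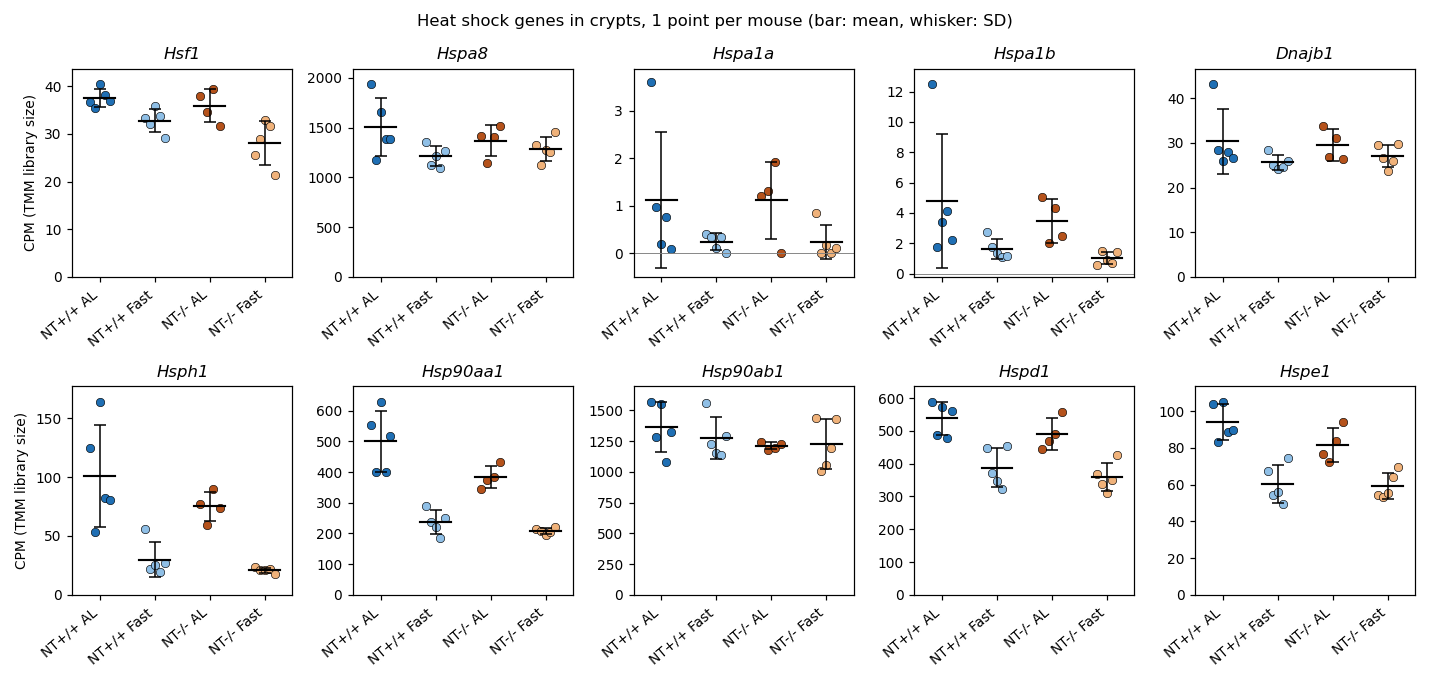
CPM of each of the 10 genes (vertical axes, linear) in the 4 groups, with 1 point per mouse, a bar at the mean, and a whisker of 1 SD. Hsp90aa1, Hspd1, and Hspe1 of fasted mice lie below those of ad libitum–fed mice of the same genotype with no overlap, whereas the groups of Hsp90ab1, Hspa8, and Dnajb1 overlap.

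To determine how food deprivation alters the chaperone genes, fasted mice were compared with ad libitum–fed mice of the same genotype. Fasting lowered the inducible HSP110 and HSP90 genes and the mitochondrial chaperonin in both genotypes, and raised no member. In NT+/+ mice 5 of the 10 genes fell (Hsph1, Hsp90aa1, Hspa1b, Hspe1, and Hspd1), and in NT-/- mice 6 fell, these 5 and Hsf1. Of all 17875 genes tested, 10.4% were lower and 11.2% higher in fasted NT+/+ mice, and 12.6% were lower and 12.5% higher in fasted NT-/- mice, by edgeR's quasi-likelihood test at an adjusted p under 0.05. The median log2 fold change of the 10 genes was −0.56 in NT+/+ and −0.45 in NT-/- mice, against −0.01 and −0.02 over all genes. With the replicate number of the file names as a block, 8 members fell in NT+/+ mice, as did 15.7% of all genes. The comparisons in the 2 genotypes share no mice.

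**Figure D2:**
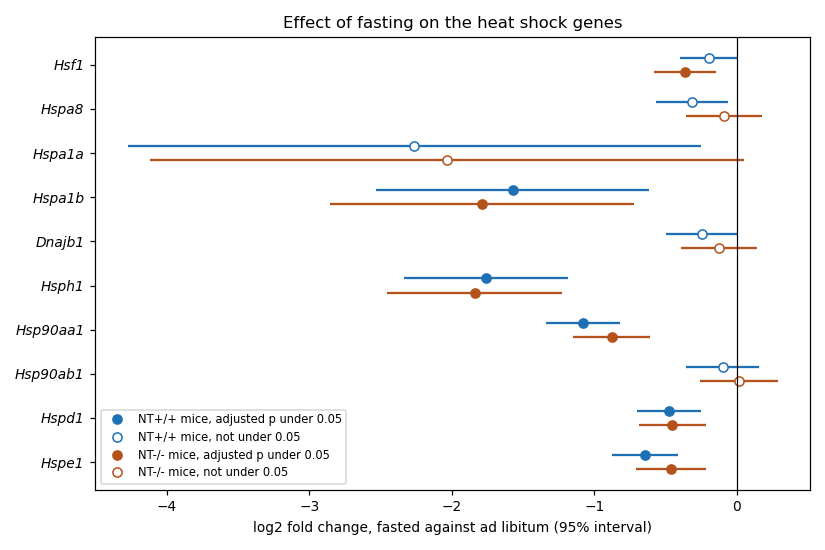
Log2 fold change of fasted against ad libitum–fed mice (horizontal axis) with its 95% interval, for NT+/+ mice (blue) and NT-/- mice (brown); filled points have an adjusted p under 0.05. Hsph1 and Hsp90aa1 lie far to the left in both genotypes, at −1.76 and −1.08 in NT+/+ mice, and Hsp90ab1 lies near 0.

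Hsph1, the HSP110 nucleotide exchange factor of HSP70, fell furthest among the genes with more than 1 TPM in every group. In ad libitum–fed NT+/+ mice its levels were 125, 53.3, 164, 82.2, and 80.4 CPM, and in fasted NT+/+ mice 56.1, 21.8, 24.95, 19.02, and 26.99 CPM. The NT-/- levels were 77.2, 59.3, 89.8, and 73.9 CPM when fed and 23.6, 21.2, 21.05, 21.5, and 17.6 CPM when fasted. The fasted groups lay below the fed ones with 1 exception: replicate 1 of the fasted NT+/+ mice, which at 56.1 CPM stood just above the lowest fed mouse. Hsph1 was 3.39-fold lower in fasted NT+/+ mice (log2 fold change −1.76, SE 0.28, edgeR adjusted p = 0.000167) and 3.58-fold lower in fasted NT-/- mice (−1.84, SE 0.29, edgeR adjusted p = 0.000156). Without the outlying fasted mouse the log2 fold change in NT+/+ mice was −2.12. That mouse also had the lowest villus marker sum of its diet, 7295 CPM.

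The 2 cytosolic HSP90 genes parted. Hsp90aa1, the inducible one, had 554, 401, 629, 402, and 516 CPM in ad libitum–fed NT+/+ mice and 288, 238, 222, 186, and 252 CPM in fasted ones. NT-/- mice had 346, 374, 384, and 431 CPM when fed and 215, 208, 195, 204, and 222 CPM when fasted. Every fasted mouse lay below every fed mouse, also across genotypes. The decrease was 2.11-fold in NT+/+ mice (log2 fold change −1.08, SE 0.12, edgeR adjusted p = 5.29e-06) and 1.84-fold in NT-/- mice (−0.88, SE 0.13, edgeR adjusted p = 6.77e-05).

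Hsp90ab1, the constitutive one, had 1568, 1286, 1550, 1081, and 1324 CPM in ad libitum–fed NT+/+ mice and 1558, 1228, 1153, 1135, and 1289 CPM in fasted NT+/+ mice. These groups overlapped over most of their range. In NT-/- mice the fed levels, 1180 to 1246 CPM, lay inside the wider fasted range of 1010 to 1438 CPM. The log2 fold change was −0.10 (SE 0.12, edgeR adjusted p = 0.619) in NT+/+ mice and 0.02 (SE 0.13, edgeR adjusted p = 0.95) in NT-/- mice, with a 95% interval in NT-/- mice from −0.26 to 0.29; its sign there changed under 5 alternatives. As a share of the TPM of both genes, a quantity chosen after the values were seen and given with no test, Hsp90aa1 made up 32.2% ± 2.18 (SD, n = 5) in fed and 21.6% ± 1.14 (n = 5) in fasted NT+/+ mice. The NT-/- share was 29.4% ± 1.42 (n = 4) and 18.2% ± 2.26 (n = 5). The lowest fed mouse, at 27.3%, stood above the highest fasted mouse, at 22.7%.

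**Figure D3:**
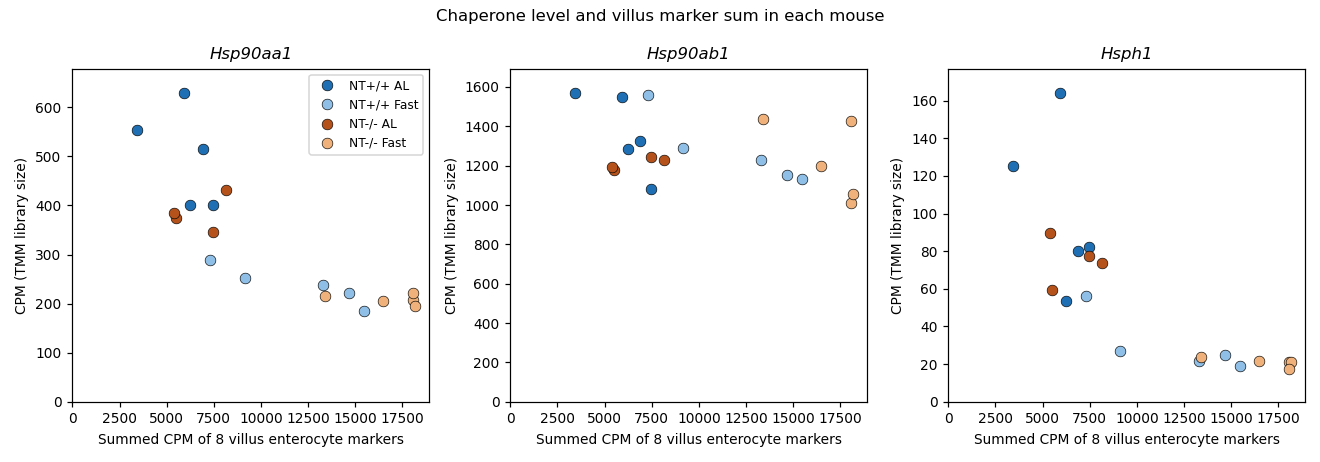
CPM of Hsp90aa1, Hsp90ab1, and Hsph1 (vertical axes) against the summed CPM of 8 villus enterocyte markers (horizontal axes), with 1 point per mouse colored by group. Fasted mice lie at higher marker sums; the fasted NT+/+ mouse at 7295 CPM, within the fed range of 3451 to 8157 CPM, has 288 CPM of Hsp90aa1, below the lowest fed mouse at 346 CPM, but 56.1 CPM of Hsph1 and 1558 CPM of Hsp90ab1, both within the fed ranges that start at 53.3 and 1081 CPM.

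After subtraction of the group means, the log2 levels of Hsph1, Hsp90aa1, and Hsp90ab1 correlated with the log2 marker sum at r = −0.60, −0.54, and −0.64 over 19 mice, as a description of points that share library and scaling. For the other members r ranged from −0.65 for Dnajb1 to 0.09 for Hsf1.

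The genes of the mitochondrial chaperonin, Hspd1 and Hspe1, both fell on fasting. Hspd1 had 589, 488, 575, 480, and 562 CPM in ad libitum–fed NT+/+ mice and 447, 373, 348, 322, and 453 CPM in fasted ones. Hspe1 had 104, 82.9, 105, 88.5, and 89.8 CPM in the same fed mice and 67.6, 54.0, 55.9, 49.3, and 74.4 CPM in the fasted mice. In each gene the fasted mice lay below the fed mice without overlap. Hspd1 was 1.39-fold lower (log2 fold change −0.47, SE 0.11, edgeR adjusted p = 0.00382) and Hspe1 1.56-fold lower (−0.64, SE 0.11, edgeR adjusted p = 0.000417).

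In NT-/- mice Hspd1 ranged from 444 to 559 CPM when fed and from 312 to 428 CPM when fasted, and Hspe1 from 72.5 to 94.0 CPM and from 53.3 to 69.4 CPM. In CPM these groups did not overlap either. In TPM those of Hspe1 did not overlap, but those of Hspd1 did, at 189 in the lowest fed and 200 in the highest fasted mouse. Both decreases were 1.37-fold, with log2 fold changes of −0.45 (SE 0.11, edgeR adjusted p = 0.00642) for Hspd1 and −0.46 (SE 0.12, edgeR adjusted p = 0.00697) for Hspe1. The ratio of their TPM ranged from 1.6 to 2.04 over all 19 mice. Across mice, with group means subtracted, Hspd1 and Hspe1 were the closest pair among the members (Pearson r = 0.87 over 19 mice). Each was closer still to genes outside the members, Hspd1 to St13 (0.94) and Hspe1 to Rtraf (0.93). The genes overlap by 112 bases on opposite strands, and the strand setting of the counting is not given in the sources used here, so reads from the overlap cannot be told apart.

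The inducible HSP70 genes were scarce. Hspa1b had 12.52, 1.73, 3.43, 4.11, and 2.22 CPM in ad libitum–fed NT+/+ mice and 2.72, 1.77, 1.34, 1.09, and 1.18 CPM in fasted ones. NT-/- mice had 5.07, 2.00, 4.33, and 2.45 CPM when fed and 0.587, 1.48, 0.925, 0.690, and 1.43 CPM when fasted. Replicate 1 of the fed NT+/+ mice stood far above all others, and only in NT-/- mice did the groups not overlap. The decrease was 2.97-fold in NT+/+ mice (log2 fold change −1.57, SE 0.46, edgeR adjusted p = 0.0185) and 3.45-fold in NT-/- mice (−1.79, SE 0.51, edgeR adjusted p = 0.0145). In NT+/+ mice it was −0.82 (edgeR adjusted p = 0.113) without that fed mouse and −1.46 (adjusted p = 0.0511) without replicate 4 of the fasted mice. For NT-/- mice it was −1.53 (adjusted p = 0.0535) without replicate 1 of the fed mice.

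Hspa1a had between 0 and 75 counts per mouse. Its levels were 3.60, 0.979, 0.198, 0.761, and 0.0967 CPM in fed and 0.406, 0.341, 0.103, 0.343, and 0 CPM in fasted NT+/+ mice. The groups overlapped, and the log2 fold change of −2.26 (SE 0.96, edgeR adjusted p = 0.102) in NT+/+ mice and −2.03 (SE 1.00, edgeR adjusted p = 0.148) in NT-/- mice did not pass the threshold. Without replicate 1 of the fed NT+/+ mice, which held the 75 counts, it was −1.14 (edgeR adjusted p = 0.441) in NT+/+ mice. With the replicate number of the file names as a block it was −2.03 there and passed (edgeR adjusted p = 0.0255). Of the 100-base windows of the Hspa1a transcript 47.1% occur unchanged in Hspa1b, so RSEM had to divide reads of this length between the genes. Summed into 1 feature, the pair had 16.1, 2.71, 3.63, 4.87, and 2.32 CPM in fed and 3.13, 2.11, 1.44, 1.43, and 1.18 CPM in fasted NT+/+ mice, with the same fed mouse far above the others and some overlap. The sum fell 3.20-fold in NT+/+ mice (log2 fold change −1.68, SE 0.46, edgeR adjusted p = 0.0131) and 3.63-fold in NT-/- mice (−1.86, SE 0.51, edgeR adjusted p = 0.0106). Without that fed mouse the value in NT+/+ mice was −0.87 and did not pass (edgeR adjusted p = 0.0764).

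The constitutive HSP70 and the J-domain gene Dnajb1 did not pass the test in either genotype. Hspa8 had 1939, 1180, 1656, 1382, and 1382 CPM in ad libitum–fed NT+/+ mice and 1351, 1129, 1217, 1100, and 1264 CPM in fasted ones. The groups overlapped, and the log2 fold change was −0.31 (SE 0.12, edgeR adjusted p = 0.0691). It passed the threshold with the title's replicate number as a block (−0.30, edgeR adjusted p = 0.0253) and with the number of the file names (−0.30, edgeR adjusted p = 0.0149). Hspa8 in NT-/- mice, at 1142 to 1515 CPM when fed and 1129 to 1462 CPM when fasted, was at −0.09 (SE 0.13, edgeR adjusted p = 0.668).

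Dnajb1, the J-domain protein that works with HSP70 in stressed cells, had 43.2, 28.3, 25.8, 27.9, and 26.6 CPM in ad libitum–fed NT+/+ mice and 28.5, 25.04, 24.2, 24.7, and 25.9 CPM in fasted ones. Apart from replicate 1 of the fed mice, the groups spanned nearly the same range. The log2 fold change was −0.24 (SE 0.12, edgeR adjusted p = 0.163) in NT+/+ mice, −0.08 without that mouse, and −0.12 (SE 0.13, edgeR adjusted p = 0.532) in NT-/- mice. The same mouse had the highest Hspa1a, Hspa1b, and Hspa8 levels of all 19 mice and the lowest villus marker sum, 3451 CPM. Its summed level of 16 immediate early genes, which mark acute stimulation and handling, was 429 CPM, in the middle of its group (401 to 482 CPM). What set this mouse apart was not tested.

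Hsf1, the regulator, had 36.7, 35.5, 40.5, 38.2, and 36.9 CPM in ad libitum–fed NT+/+ mice and 33.3, 32.1, 35.8, 33.7, and 29.2 CPM in fasted ones. The groups overlapped only at 1 fasted mouse, and the log2 fold change of −0.19 (SE 0.10, edgeR adjusted p = 0.169) did not pass the threshold. With the replicate number of the file names as a block it was −0.20 and did (edgeR adjusted p = 0.039). Hsf1 in NT-/- mice had 38.1, 34.5, 39.5, and 31.7 CPM when fed and 25.6, 29.0, 32.8, 31.7, and 21.3 CPM when fasted. It fell 1.28-fold (log2 fold change −0.36, SE 0.10, edgeR adjusted p = 0.0148). This call was lost without replicate 3 of the fed NT-/- mice (adjusted p = 0.0589) and with only the groups compared in the fit (adjusted p = 0.0506). The Hsf1 transcript says nothing of the activity of the protein, which is set by binding and modification.

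The file-name number pairs fasted with fed mice, in 5 pairs of NT+/+ and 4 pairs of NT-/- mice. Within these pairs Hsph1, Hsp90aa1, Hspd1, Hspe1, Hsf1, and Hspa8 were lower in the fasted mouse in 5 of 5 and in 4 of 4 pairs. Hspa1a and Dnajb1 were lower in 5 of 5 pairs and in 3 of 4, Hspa1b in 4 of 5 and 4 of 4, and Hsp90ab1 in 4 of 5 and 1 of 4. The share of all genes that were lower in every pair was not counted, so these pairs are a description only. In CPM the fasted mice did not overlap with the fed mice, and lay lower, for 3 members in NT+/+ mice (Hsp90aa1, Hspd1, and Hspe1). The same held for 5 in NT-/- mice (these 3, Hsph1, and Hspa1b). Among all genes tested the share was 6.97% in NT+/+ and 10.8% in NT-/- mice.

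The next comparison asked whether loss of NT alters these genes. No member passed the test. The median log2 fold change of the 10 members, NT-/- against NT+/+, was −0.15 in fed and −0.08 in fasted mice. Over all genes it was −0.001 and −0.01, and these medians were not tested. In ad libitum–fed mice 0 of 10 members differed between genotypes by edgeR, 1 had an unadjusted p under 0.05, and DESeq2 called 0. That member was Hsp90aa1, at 346 to 431 CPM in NT-/- and 401 to 629 CPM in NT+/+ mice (log2 fold change −0.38, SE 0.13, unadjusted p = 0.0082, edgeR adjusted p = 1.0). In fasted mice 0 of 10 differed by edgeR and by DESeq2, and 1 had an unadjusted p under 0.05. That was Hsf1, at 21.3 to 32.8 CPM in NT-/- and 29.2 to 35.8 CPM in NT+/+ mice (−0.23, SE 0.10, unadjusted p = 0.0319, edgeR adjusted p = 0.479). Over all genes edgeR called 0.00559% in each diet, the 1 gene being Nts itself. DESeq2, which tested 34533 genes, called 1 higher and 3 lower in fed NT-/- mice and 78 higher and 19 lower in fasted NT-/- mice.

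The effect of fasting was also compared between genotypes, as the difference of the 2 log2 fold changes. None of the 10 members differed by edgeR or DESeq2, and 0 had an unadjusted p under 0.05 by edgeR. Over all genes edgeR called 0% and DESeq2 1 gene. The difference, NT-/- minus NT+/+, was 0.20 for Hsp90aa1 with a 95% interval from −0.17 to 0.57. For Hspd1 it was 0.02, with an interval from −0.31 to 0.35, and for Hspe1 0.18, from −0.16 to 0.52. For Hsph1 it was −0.08, and its interval, −0.91 to 0.75, leaves room for effects that differ by over 1.5-fold. The interval of Hspa1a spanned −2.73 to 3.19, so that a difference in this gene was not detectable at its depth of at most 75 counts per mouse.

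The genes that work with these chaperones were examined as lists. For comparison, of all genes tested 10.4% were lower and 11.2% higher in fasted NT+/+ mice, and 12.6% and 12.5% in fasted NT-/- mice. Among 19 HSP90 co-chaperones, which load clients onto HSP90, pace its ATPase, or shape its cycle, 8 fell and 1 rose in fasted NT+/+ mice, and 10 fell and 1 rose in fasted NT-/- mice. The list medians were −0.25 and −0.30 on the log2 scale. Stip1, the adaptor that hands clients from HSP70 to HSP90, was 109 ± 25.7 CPM (SD, n = 5) in fed and 63.1 ± 10.6 CPM (n = 5) in fasted NT+/+ mice (log2 fold change −0.79, SE 0.14, edgeR adjusted p = 0.00045). Chordc1, an HSP90-binding co-chaperone, fell by 0.79 on the log2 scale in NT+/+ and by 0.88 in NT-/- mice, and Ttc4 fell by 0.36 and by 0.47. The exception was Fkbp5, an HSP90-bound immunophilin and a well-known target of the glucocorticoid receptor. It had 13.4 to 25.8 CPM in fed and 65.1 to 179 CPM in fasted NT+/+ mice, 5.14-fold higher (log2 fold change 2.36, SE 0.29, edgeR adjusted p = 1.16e-05), and was 5.15-fold higher in fasted NT-/- mice (2.36, SE 0.31, edgeR adjusted p = 2.4e-05).

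Of 8 other cytosolic HSP70 and HSP110 genes, 3 fell and 1 rose in each genotype. The 3 were the HSP110 genes Hspa4l and Hspa4, relatives of Hsph1, and Hspa14. Hspa4l went from 60.2 ± 8.60 CPM to 32.3 ± 6.11 CPM in NT+/+ mice (n = 5 and 5, log2 fold change −0.90, SE 0.12, edgeR adjusted p = 2.16e-05) and had a log2 fold change of −0.61 in NT-/- mice. Hspa4 was at −0.42 and −0.40 and Hspa14 at −0.40 and −0.46. The gene that rose, named after its values were seen, was Hspa12a, a distant relative of the family, at 2.56-fold in NT+/+ and 3.73-fold in NT-/- mice.

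Of the 16 cytosolic J-domain genes, 3 were higher and 3 lower in each genotype, not far from the shares over all genes. Dnajb12 and Dnajc5, whose products sit on membranes of the endoplasmic reticulum and on secretory vesicles, rose by 0.41 and 0.37 on the log2 scale in NT+/+ mice, and Dnajc13, an endosomal protein, fell by 0.36. Dnajb5 fell by 1.00 in NT-/- mice. Of 8 nucleotide exchange and accessory factors of HSP70, 1 rose and 1 fell in each genotype, near the shares over all genes. Bag4 rose in both genotypes (0.33 and 0.36), St13 fell in NT+/+ mice only past the threshold (−0.29), and Hspbp1 in NT-/- mice (−0.53). No gene of these lists differed between genotypes at an adjusted p under 0.05, in either diet or in the effect of fasting. At an unadjusted p under 0.05 by edgeR there were 1 HSP90 co-chaperone in fed mice, 3 in fasted mice, and 1 for the effect of fasting. Over all 17875 genes these counts were 299, 1634, and 485.

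The other folding machines gave a mixed picture. TRiC, the cytosolic chaperonin that folds actin and tubulin, and prefoldin, which feeds it, had 3 of 14 genes lower and 0 higher in fasted NT+/+ mice, and 4 lower and 1 higher in NT-/- mice. Vbp1, a prefoldin subunit, had log2 fold changes of −0.47 and −0.43, and Cct8, a TRiC subunit, −0.33 and −0.30. Cct3 was at −0.31 in NT+/+ mice, and the gene that rose in NT-/- mice was Pfdn5 at 0.34. Of 17 other mitochondrial chaperones and proteases, 3 fell and 2 rose in each genotype, near the shares over all genes. The 3 were Yme1l1, a protease of the inner membrane (−0.42 in NT+/+ mice), Dnaja3, the mitochondrial J-domain partner of HSP70 (−0.33 and −0.47), and Clpb (−0.55 in NT-/- mice). Grpel2 rose in NT+/+ mice (0.33) and Clpx, the unfoldase of the ClpXP protease, in both genotypes (0.19 and 0.32). The list medians were −0.06 and −0.03, near that of all genes, whereas Hspd1 and Hspe1 lay between −0.64 and −0.45.

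Chaperones of the endoplasmic reticulum fold secreted and membrane proteins and answer to a separate stress pathway. In fasted NT+/+ mice 11 of 14 fell and 0 rose, and in NT-/- mice 10 fell and 0 rose, with medians of −0.41 and −0.35. Sdf2l1, Creld2, and Pdia6 were at −0.87, −0.81, and −0.55 in NT+/+ mice and at −0.93, −0.70, and −0.64 in NT-/- mice. In NT-/- mice the count of 10 was 6 without replicate 1 of the fed mice, 5 without replicate 4 of the fed mice, 5 without replicate 3 of the fasted mice, and 6 without replicate 4 of the fasted mice.

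Of 9 small heat shock protein genes only 3 were expressed enough to be tested, and edgeR called 0 in either genotype (2 and 0 at an unadjusted p under 0.05), with Hspb8 at 0.93 (SE 0.36, edgeR adjusted p = 0.0744) in NT+/+ mice. Of 6 other heat shock factors and HSF1 regulators 5 were tested. Hsbp1, which binds HSF1 and restrains it, fell by 0.19 in NT+/+ mice (SE 0.06, edgeR adjusted p = 0.0318) and was at −0.11 in NT-/- mice. Of 16 immediate early genes 15 were tested, and 0 changed in NT+/+ mice (5 at an unadjusted p under 0.05), with Junb at 0.46, Btg2 at 0.31, and Egr1 at 0.68. In NT-/- mice 2 rose, Junb and Ier3, both at 0.63.

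**Figure D4:**
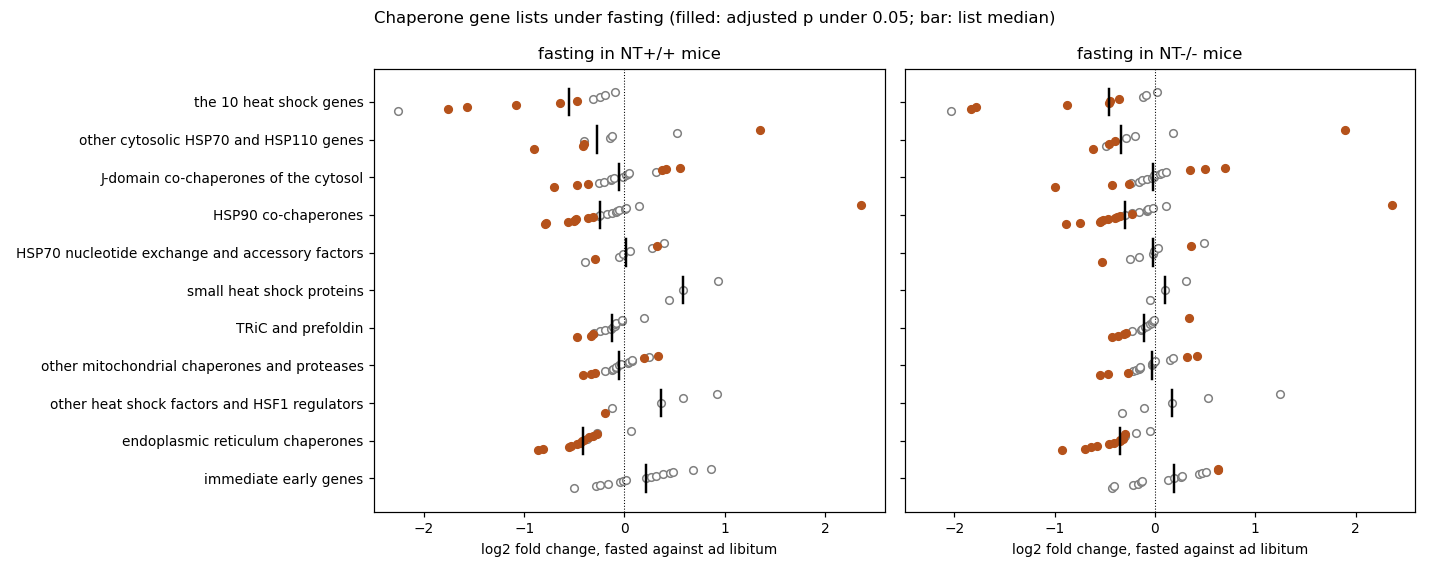
Log2 fold change of fasted against ad libitum–fed mice (horizontal axes) for each tested gene of the 10 heat shock genes and of 10 further lists, in NT+/+ mice (left) and NT-/- mice (right); filled points have an adjusted p under 0.05 and bars are list medians. The 10 heat shock genes (medians −0.56 and −0.45) and the endoplasmic reticulum chaperones (−0.41 and −0.35) lie to the left, and the lone filled point at 2.36 among the HSP90 co-chaperones is Fkbp5.

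Last, the pattern of each member over the 19 mice, with group means subtracted, was compared with that of all other tested genes. Values are Pearson r in log2 CPM, given as a description, since libraries share depth and RNA quality. Hsp90aa1 was most like its co-chaperone Stip1 (0.89), then Usp39 (0.87) and Gm10131 (0.86). Hspd1 was most like St13 (0.94), a co-chaperone of HSP70, then Anp32a (0.94) and Ndc1 (0.93). These are the only members with a gene of the chaperone lists in first place.

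Hspe1 was most like Rtraf (0.93), Snrpd1 (0.90), and Sub1 (0.90), and Hsph1 most like Swi5 (0.86), Wdr3 (0.86), and Polr1e (0.86). Hspa8 was nearest to Mrps26 (0.88), Mrpl18 (0.88), and Psma7 (0.88), genes of the mitochondrial ribosome and the proteasome. Hsp90ab1 was nearest to Eif4ebp2 (0.94), Rpl3 (0.94), and Polr2m (0.92), and Hsf1 to Ano9 (0.91), Trim11 (0.91), and Tnip2 (0.91). Dnajb1 was nearest to Tada2b (0.87), Cipc (0.86), and Phrf1 (0.84), Hspa1a to Tecpr1 (0.85), Aifm2 (0.85), and Dtx2 (0.84), and Hspa1b to Degs1 (0.79), Adgrf5 (0.77), and Thap7 (0.76).

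Among the 10 members themselves, the closest pairs after Hspd1 and Hspe1 were Hsp90aa1 with Hspd1 (0.83) and Hsp90aa1 with Hsph1 (0.77). Hsp90aa1 was closer still to Stip1 (0.89) and Hspd1 to St13 (0.94), both outside the members. Hspa1b varied with Dnajb1 (0.75). For Hsf1 r was −0.61 with Hspd1, −0.42 with Hsp90ab1, −0.34 with Hspe1, and 0.26 with Hsph1.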

How the data were processed

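RNA of small intestinal crypts was measured in 19 mice, grouped by sample title. Crypts had been released with cold EDTA from the larger, proximal part of the small intestine. The distal remainder, where the paper places the highest NT expression, was left out. Per the labels and methods, the authors depleted ribosomal RNA, sequenced 100-base single-end reads, trimmed them with Trimmomatic 0.39, and mapped them with RSEM to Ensembl release 100 transcripts of GRCm38. The authors deposited RSEM expected counts, not normalized, in which reads that fit several genes are divided by a model, and TPM values. The RSEM version and strand setting are not given in the sources used here.

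Expected counts were rounded. Of 55487 genes, 55141 were matched to a symbol. Counts were normalized by TMM and the 17875 genes passing filterByExpr were fitted with edgeR 4.0.16 (R 4.3.3), with 1 coefficient per group, no covariate, 15 residual degrees of freedom, and Benjamini-Hochberg adjustment over all genes (threshold 0.05). SE was derived from the fold change and the F statistic (size over root F). The script was tested on data simulated from these counts. CPM use TMM library sizes. TPM, the deposited values, served only for levels between genes and for a check of overlap in Hspd1 and Hspe1. Depth limits Hspa1a and Hspa1b most. Fed controls were littermates of fasted mice, with no record used here of which mice share a litter. The main fit used no pairing, so any variation between litters stayed in the spread within groups on which its p values rest.

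The members and lists were chosen with earlier results of these data known. Genes named are the members, up to 3 genes per list with the smallest p in each fasting comparison, the 3 genes most like each member, and Nts; exceptions are marked. Of each member's 100-base transcript windows, the share found in transcripts of other genes (GENCODE M21) was 40.7% for Hsp90aa1, 57.1% for Hspa8, 23.9% for Hspd1, and 22.4% for Hspe1, mostly in pseudogenes, and 0% for Hsf1, Hsp90ab1, Hsph1, and Dnajb1. For Hsp90aa1 and Hspa8 the main copies, Gm12346 and Gm15459, held 3098 and 1801 counts over all mice against 119437 and 477164.

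The replicate number of the titles and a number in the file names were checked as marks of such pairs. Deviations from the group means correlated over 0.1 in every pair by the file-name number in all 4 comparisons (mean r, 0.23 to 0.271) and by the title number in 2. The fit without a block was kept as the main one, and both numbers were used as a block. Alternatives were DESeq2 (1.42.0), upper quartile normalization, no filter, at least 10 counts in every mouse, either block, sex as a covariate (without 1 mouse that has no sex label), the mouse with disagreeing labels as NT-/-, only the groups compared, Hspa1a and Hspa1b summed, and each mouse left out. Leaving out each mouse with the pair summed was added after seeing the data.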

Additional observations from a re-analysis of the deposited data

Results flagged for a closer look

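A mouse was looked at again where its gap to the nearest mouse of its group exceeded Dixon's critical share of the group's range. Of 40 groups of 4 or 5 mice tested, 5 did so, and chance gives about 1 in 20. Replicate 1 of the ad libitum–fed NT+/+ mice was the highest for 3 members: Hspa1a at 3.60 CPM (others, 0.0967 to 0.979 CPM), Hspa1b at 12.52 CPM (others, 1.73 to 4.11 CPM), and Dnajb1 at 43.2 CPM (others, 25.8 to 28.3 CPM). Replicate 1 of the fasted NT+/+ mice was the highest for Hsph1, at 56.1 CPM (others, 19.02 to 26.99 CPM). Replicate 1 of the fasted NT-/- mice was the highest for Hspa1a, at 0.854 CPM (others, 0 to 0.173 CPM). Without it the log2 fold change of Hspa1a in NT-/- mice was −3.57 and passed the threshold (edgeR adjusted p = 0.0424).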

How the results depend on the processing

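Hsp90aa1, Hsph1, Hspd1, and Hspe1 kept their direction and an adjusted p under 0.05 in both fasting comparisons under all 29 alternatives. The number of members that fell in NT+/+ mice was 5; it was 8 with the file-name number as a replicate block, which added Hspa8, Hsf1, and Hspa1a, 6 with the title number as a block, which added Hspa8, 4 to 6 with 1 mouse left out, and 4 to 6 under the others. In NT-/- mice it was 6 under either block and 5 to 7 otherwise. The blocks changed no other call of a member. The 2 genotype comparisons and the difference between them called 0 members under every alternative. Hspa8 in NT+/+ mice also passed with DESeq2 (adjusted p = 0.047), upper quartile normalization (0.0487), and without replicate 2 of the fed mice (0.025), and Hspa1a with sex as a covariate (0.0474). With 1 mouse left out, a choice made after seeing the data, the sum of Hspa1a and Hspa1b ranged from −1.95 to −0.87 in NT+/+ mice and from −2.06 to −1.66 in NT-/- mice, and only the omission of replicate 1 of the fed NT+/+ mice ended a call. Hspa1a and Hspa1b could not be tested with at least 10 counts in every mouse.

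Signs changed only for differences that passed no threshold. For Hsp90ab1 on fasting in NT-/- mice the log2 fold change was −0.00360 with no filter, −0.0169 with the title block, −0.0455 with sex as a covariate, and −0.0479 to 0.0786 with 1 mouse left out. For genotype in fed mice, leaving out 1 mouse gave −0.42 to 1.09 for Hspa1a, −0.71 to 0.29 for Hspa1b, and −0.11 to 0.12 for Dnajb1. For genotype in fasted mice it gave −0.12 to 0.0292 for Hsp90ab1, −1.34 to 0.49 for Hspa1a, and −0.0861 to 0.0650 for Hspe1; Hspa1a was −0.00198 with the title block, and with the mouse of disagreeing labels as NT-/- Hspa1a was −0.41, Hspd1 0.00987, and Hspe1 0.13. For the difference between the effects of fasting it gave −1.30 to 0.61 for Hspa1a, −0.96 to 0.0559 for Hspa1b, −0.32 to 0.28 for Hsph1, −0.0423 to 0.19 for Dnajb1, and −0.0489 to 0.0916 for Hspd1; Hspa1a was −0.38 with that mouse as NT-/-, and Hspd1 was −0.0279 with the title block and −0.0452 with sex. The cause was not tested.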
